A study of Saccharomyces cerevisiae with 6 samples.

Results

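The genes described here encode the machinery that carries RNA polymerase II (Pol II) from the promoter through the gene. They were chosen by name and role, by a rule that uses no measured value but was written with earlier results of these data known. The list holds the 12 subunits of the enzyme, TFIIB, TFIIE, TFG1 and TFG2 of TFIIF, and the kinase and cyclin of TFIIH. Elongation factors, with the kinases that act beside them, complete it. All 34 had a probe set of their own, 1 each, among the 5449 genes measured. The study overexpressed Yra1, an mRNA export adaptor that binds transcribed chromatin, and the comparison asks whether the transcripts of this machinery changed. Both groups were haploid W303-1A yeast of mating type a with the alleles ade2-1, can1-100 and trp1-1, together with his3-11,15 and ura3-1 and a mutant allele of LEU2. Each carried a pRS413 plasmid, which is centromeric per the methods, with YRA1 behind the GAL1 promoter, and the chromosomal YRA1 was present too. The control, labelled WT, had pRS413::GAL-YRA1 with the gene as it is (GAL-YRA1, 3 arrays). The overexpressing cells had pRS413::GAL-YRA1∆i with the cDNA copy (GAL-YRA1Δi, 3 arrays). All cultures grew in raffinose minimal medium and then spent 4 hours in 2% galactose, so the control also expressed the plasmid gene, and no culture without such a plasmid was analysed here.

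Pol II makes the messenger RNA of nuclear genes. Its general factors bring it to the promoter: TFIIB and TFIIF help to place it at the start site, and TFIIE recruits TFIIH, which opens the DNA and phosphorylates the repeated C-terminal domain (CTD) of the largest subunit. During elongation the CTD is phosphorylated further by the CTDK-I and Bur kinases, and Spt4-Spt5, Spt6, FACT, TFIIS and the Paf1 complex help the enzyme through chromatin. In yeast, the phosphorylated CTD is also a landing platform for mRNA processing and export factors.

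Values are log2 RMA signals from 1-colour Affymetrix arrays, and a positive change means a higher value in GAL-YRA1Δi. The transcript of YRA1 (YDR381W) differed by 1.20 (SE 0.08, n = 3 per group, limma adjusted p = 0.0102), with no overlap between the groups. Its adjusted p was 0.0802 to 0.112 when any array other than a replicate 2 array was left out. The a-cell genes MFA1, MFA2, STE2 and STE6 lay between 11.77 and 14.09, while BAR1, also an a-cell gene, lay below 4.70, the 95th percentile of the probe sets for Schizosaccharomyces pombe on the same arrays. The α-cell genes MF(ALPHA)1, MF(ALPHA)2, STE3 and SAG1 lay between 6.35 and 10.48, above that percentile. Between the groups MF(ALPHA)1 differed by -1.06 (SE 0.44, limma adjusted p = 0.312), with overlap. MF(ALPHA)2, STE3 and SAG1 differed by 0.06, -0.27 and 0.18. The part of these mating-type signals in the results was not tested. Replicate 2 departed from the other arrays in like ways in both groups over the whole table, so counts are also given without these arrays. In RNA from whole cultures, less transcript per cell and fewer cells that make it cannot be told apart.

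None of the 34 genes passed a threshold that joined an adjusted p with a 1.5-fold change. In the limma fit made here on the deposited values, a change of 1.5-fold or more and an adjusted p below 0.01, the criterion stated in the methods, called 0 of the 34 genes and 0% of all 5498 tested probe sets. At 0.05 in place of 0.01, with the same fold, 0 of 34 were called, against 0.400% of all. At an unadjusted p below 0.05 there were 6 of 34 (17.6%), all higher in GAL-YRA1Δi, which is near the 16.1% of all tested probe sets. The adjusted p of the 34 genes ran from 0.132 to 0.995. The 95% confidence interval of every one of the 34 changes lay within 1.5-fold in both directions (0.58 on the log2 scale), as it did for 79.2% of all probe sets. The widest reach of any of these intervals was -0.37 for RPB9 and 0.54 for TFA1, and the standard errors ran from 0.06 to 0.15.

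Within these bounds the changes are described by role, without a test between the roles. The 34 changes had a median of 0.09, against 0.01 over all probe sets, and ran from -0.09 (TFA2) to 0.33 (RTF1). The mean was higher in GAL-YRA1Δi for 24 of the 34 (52.4% of all probe sets). The groups did not overlap for 12 of the 34 (35.3%, against 22.2% of all probe sets), 10 of them higher (13.6% of all) and 2 lower (8.57% of all). Without GAL-YRA1 replicate 2 the share was 35.3% of the 34 genes against 37.7% of all probe sets, so the excess over all probe sets was not seen there. It was not seen without both replicate 2 arrays either (58.8% against 64.2%). With any other single array left out, the share of the 34 genes stayed above that of all probe sets. None of the 12 genes without overlap when all arrays were used was a polymerase subunit, and all came from the 22 initiation and elongation factors. The median change was 0.02 over the 12 subunits, 0.20 over the 7 initiation factor genes and 0.13 over the 15 elongation factor and kinase genes. These medians are a description, and the difference between the subunits and the factors was not tested. In replicate pairs, as the labels number them, 14 of 34 genes were higher in all 3 pairs (27.3% of all probe sets) and 4 were lower in all 3 (23.3% of all). The median of the 34 was 0.11 in pair 1, 0.11 in pair 2 and 0.04 in pair 3.

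**Figure D1:**
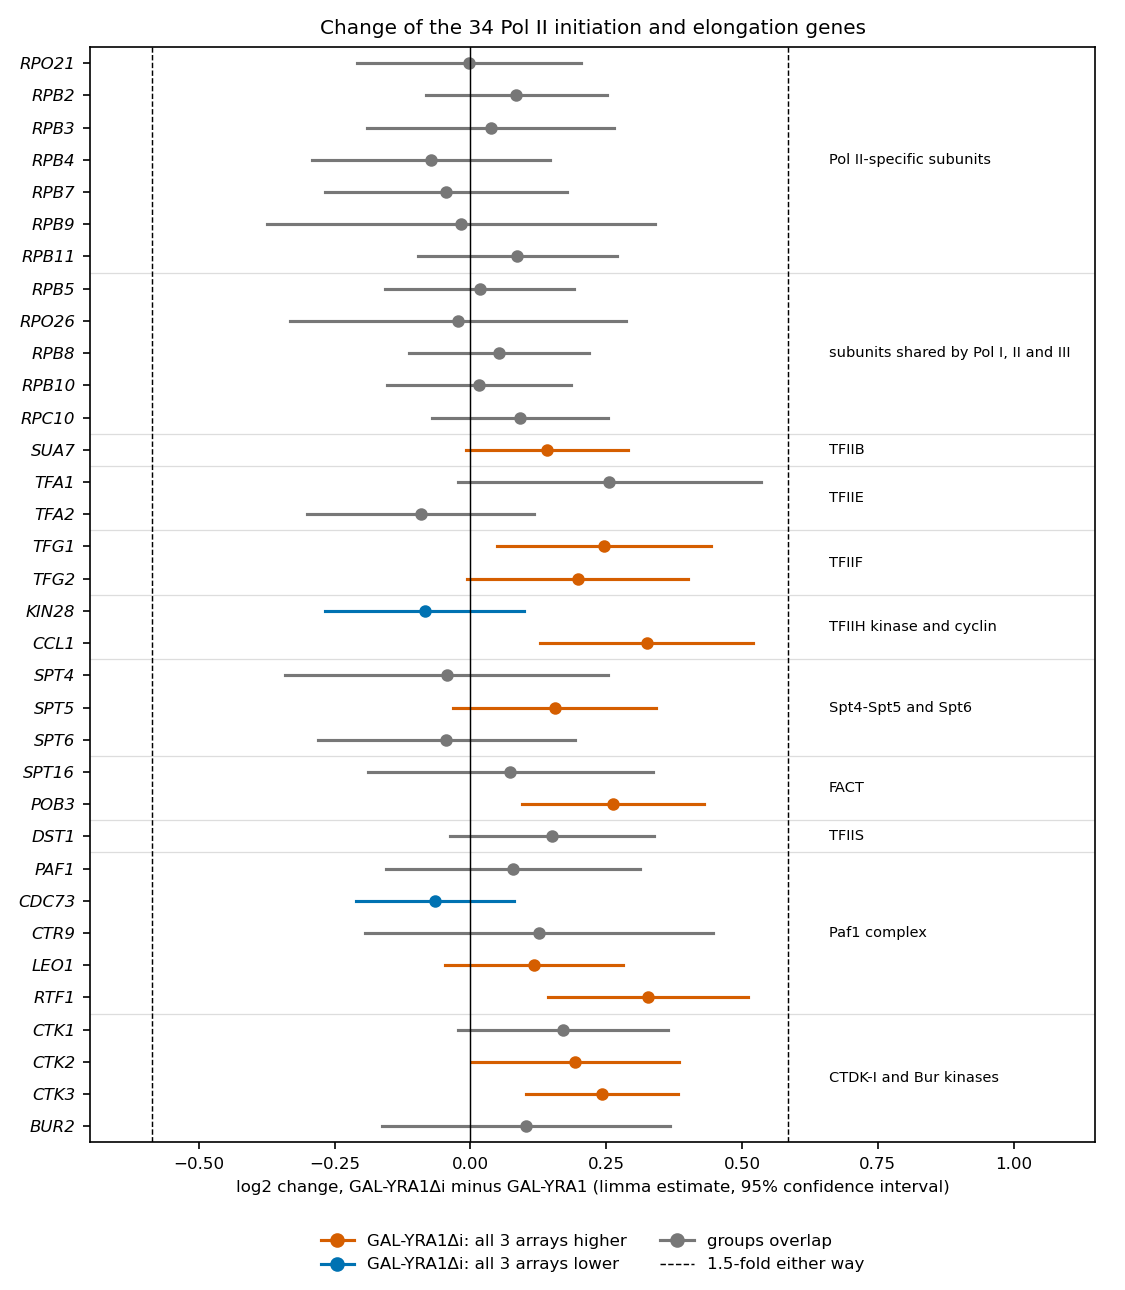
Change of each of the 34 genes, as limma estimate (point) with its 95% confidence interval (line) on the log2 scale, grouped by role; orange and blue mark genes whose GAL-YRA1Δi arrays all lay above or below every GAL-YRA1 array, and dashed lines stand at 1.5-fold. The 12 polymerase subunits sit between -0.07 and 0.09, and no interval reaches a dashed line.

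The 12 polymerase subunits gave changes between -0.07 and 0.09, with adjusted p from 0.601 to 0.995 in limma. Of the 7 subunits found only in Pol II, RPO21 (YDL140C), the largest subunit and the carrier of the CTD, differed by -0.0022 (SE 0.09, 95% interval -0.21 to 0.20). RPB2 (YOR151C), the other large subunit of the catalytic centre, had 12.27, 12.18 and 12.12 on the GAL-YRA1 arrays of replicates 1, 2 and 3, and 12.23, 12.29 and 12.31 on the GAL-YRA1Δi arrays. The groups overlapped, since the highest GAL-YRA1 value lay above the lowest GAL-YRA1Δi value, and the change was 0.08 (SE 0.07, adjusted p = 0.640). RPB11 (YOL005C), which pairs with RPB3 in the assembly platform of the enzyme, had 12.11, 12.17 and 12.09 against 12.21, 12.32 and 12.11. Its groups overlapped as well, and the change was 0.09 (SE 0.08, adjusted p = 0.672), while RPB3 differed by 0.04. The stalk subunits RPB4 and RPB7, which bind the emerging transcript, differed by -0.07 and -0.04. RPB9 (YGL070C), a subunit with a part in start site choice and fidelity, was among the 3 members with the largest SD within a group. It had 11.44, 11.89 and 11.64 in GAL-YRA1 and 11.60, 11.84 and 11.47 in GAL-YRA1Δi. Its replicate 2 was the highest array of either group, and the change of -0.02 (SE 0.15) was small beside that spread.

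The 5 subunits that Pol II shares with RNA polymerases I and III, RPB5, RPO26, RPB8, RPB10 and RPC10, differed by 0.02, -0.02, 0.05, 0.02 and 0.09. RPC10 (YHR143W-A), a small zinc-binding subunit, had 12.28, 12.38 and 12.42 against 12.50, 12.44 and 12.41, with the lowest GAL-YRA1Δi array just under the highest GAL-YRA1 array (change 0.09, SE 0.07, adjusted p = 0.601). RPB8 (YOR224C) had 13.41, 13.30 and 13.46 against 13.48, 13.43 and 13.42, and its groups overlapped (change 0.05, SE 0.07, adjusted p = 0.777). The median over the shared subunits was 0.02, and over the subunits specific to Pol II it was 0.00.

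Of the general initiation factors, TFIIB and both TFIIF genes had higher GAL-YRA1Δi values with no overlap, and TFIIE and the TFIIH kinase module each had one partner with a positive change and one with a small negative change. SUA7 (YPR086W), which encodes TFIIB, had 12.08, 12.06 and 12.11 on the GAL-YRA1 arrays and 12.28, 12.17 and 12.22 on the GAL-YRA1Δi arrays. Every GAL-YRA1Δi array lay above every GAL-YRA1 array, by a small step, with a change of 0.14 (SE 0.06, 1.10-fold, adjusted p = 0.335). TFG1 (YGR186W), the large TFIIF subunit, had 11.46, 11.61 and 11.37 against 11.67, 11.75 and 11.76. The groups did not overlap, and the change was 0.25 (SE 0.08, 95% interval 0.05 to 0.44, adjusted p = 0.229). TFG2, its partner, differed by 0.20 (SE 0.08, adjusted p = 0.323), also with no overlap.

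TFA1 (YKL028W), the large subunit of TFIIE, had 11.23, 11.04 and 11.43 in GAL-YRA1 cells and 11.59, 11.39 and 11.49 in GAL-YRA1Δi cells. Replicate 3 of GAL-YRA1 lay above replicate 2 of GAL-YRA1Δi, so the groups overlapped, and TFA1 too had one of the 3 largest SDs within a group (11.23 ± 0.20 against 11.49 ± 0.10, SD, n = 3). The change was 0.26 (SE 0.11, adjusted p = 0.348), with 0.36, 0.35 and 0.06 in pairs 1, 2 and 3. TFA2, the small TFIIE subunit, differed by -0.09 (SE 0.09, adjusted p = 0.695), and by -0.14 to -0.02 with 1 array left out. CCL1 (YPR025C), the cyclin of the TFIIH kinase, had 9.94, 10.11 and 10.10 against 10.35, 10.47 and 10.30. No array of one group reached the other, and the change was 0.32 (SE 0.08, 95% interval 0.13 to 0.52, 1.25-fold, adjusted p = 0.140). KIN28, the kinase that CCL1 activates and that phosphorylates the CTD at promoters, differed by -0.08 (SE 0.08, adjusted p = 0.675), and by -0.12 to -0.02 with 1 array left out. Its groups did not overlap either, although replicate 1 of GAL-YRA1 (10.55) and the highest GAL-YRA1Δi array (10.55) were equal to the digits given.

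**Figure D2:**
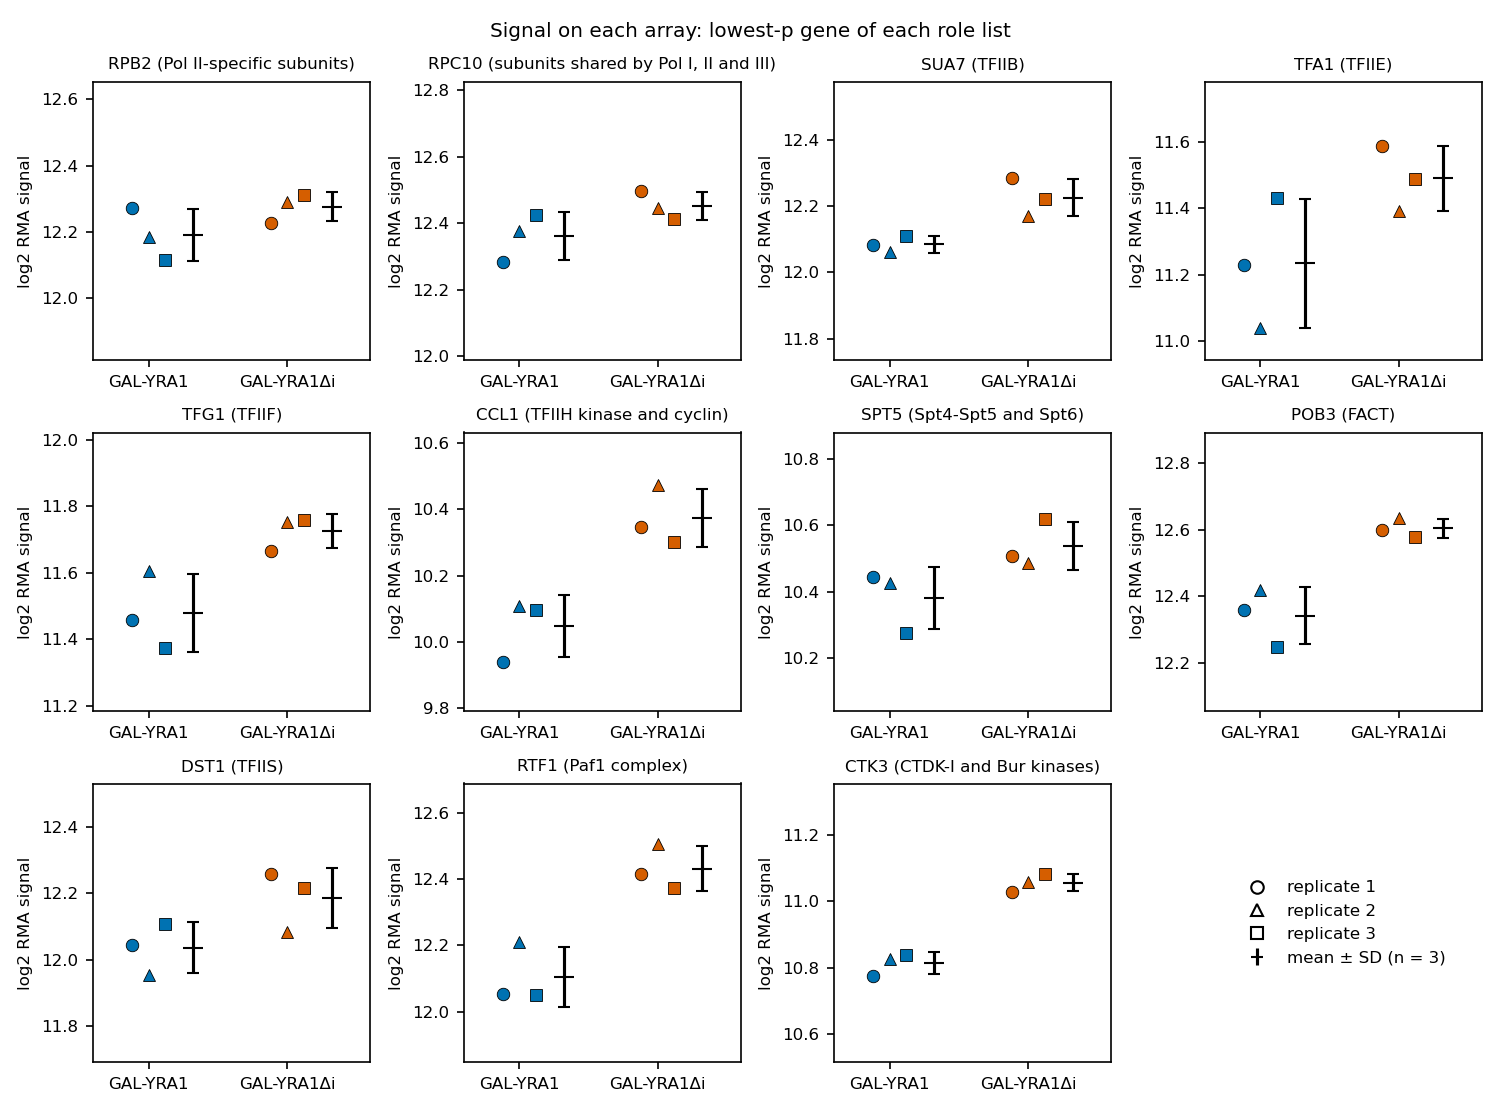
Log2 RMA signal on each array for the gene with the lowest p in each of the 11 role lists; symbols mark replicates 1 to 3, colours the group, and black bars the mean ± SD (n = 3). The y axes all span the same width but start at different values. CCL1, RTF1, POB3 and CTK3 show a gap between the groups, while RPB2 and RPC10 overlap.

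Among the elongation factors, RTF1 and POB3 had 2 of the 4 lowest adjusted p of the 34 genes, next to CCL1 and CTK3. RTF1 (YGL244W), the Paf1 complex subunit through which histone H2B is ubiquitylated in transcribed chromatin, had 12.05, 12.21 and 12.05 on the GAL-YRA1 arrays and 12.41, 12.51 and 12.37 on the GAL-YRA1Δi arrays. The groups lay apart and the change was 0.33 (SE 0.08, 95% interval 0.14 to 0.51, 1.25-fold, adjusted p = 0.132), with 0.36, 0.30 and 0.32 in pairs 1, 2 and 3. Without both replicate 2 arrays, a setting added after the data were seen, its adjusted p was 0.0276, below 0.05, but its change stayed under 1.5-fold (adjusted p 0.0276 to 0.438 over all alternatives). LEO1 (YOR123C), another Paf1 complex subunit, had 11.32, 11.46 and 11.43 against 11.50, 11.57 and 11.49. Its groups came close without overlapping, with a change of 0.12 (SE 0.07, adjusted p = 0.478). CTR9 (YOL145C), the scaffold of the complex and the gene with the largest SD within a group, had 10.01, 10.24 and 10.14 against 10.11, 10.53 and 10.14. A single array, replicate 2 of GAL-YRA1Δi, stood above the rest, and the change of 0.13 (SE 0.13, adjusted p = 0.717) was no larger than its error and was -0.01 without that array. PAF1 differed by 0.08 and CDC73 by -0.06 (adjusted p = 0.765 and 0.685), the latter with all 3 GAL-YRA1Δi arrays below the GAL-YRA1 arrays, so the changes of the 5 subunits of the complex ran from -0.06 to 0.33.

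POB3 (YML069W) encodes a subunit of FACT, which takes histones off and puts them back as Pol II passes. It had 12.36, 12.42 and 12.25 in GAL-YRA1 and 12.60, 12.64 and 12.58 in GAL-YRA1Δi, with no overlap and a change of 0.26 (SE 0.07, 95% interval 0.10 to 0.43, 1.20-fold, adjusted p = 0.157). SPT16, the large FACT subunit, differed by 0.07 (SE 0.11, adjusted p = 0.807). SPT5 (YML010W), the conserved factor that closes the Pol II clamp over DNA, had 10.44, 10.43 and 10.28 against 10.51, 10.49 and 10.62. The groups did not overlap, and the change of 0.16 (SE 0.08, adjusted p = 0.387) came mostly from pair 3 (0.34, against 0.06 in pairs 1 and 2). SPT4, its small partner, differed by -0.04. SPT6 (YGR116W), a histone chaperone that binds Pol II, had 11.04, 11.18 and 10.98 against 10.94, 11.19 and 10.94. These values overlapped fully, with a change of -0.04 (SE 0.10, adjusted p = 0.871). DST1 (YGL043W) encodes TFIIS, which makes stalled Pol II cut its transcript and resume. It had 12.04, 11.96 and 12.11 against 12.26, 12.08 and 12.22, and was higher in each pair (0.21, 0.13 and 0.11), though the groups overlapped (change 0.15, SE 0.08, adjusted p = 0.413).

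The 3 CTDK-I genes and BUR2, the cyclin of the Bur kinase, had positive changes with a median of 0.18, while SGV1, the Bur kinase itself and not one of the 34 genes, differed by -0.03. CTK3 (YML112W), a subunit of CTDK-I that is needed for its activity, had 10.78, 10.83 and 10.84 in GAL-YRA1 cells and 11.03, 11.06 and 11.08 in GAL-YRA1Δi cells. It had the lowest standard error of the 34 genes and no overlap, with a change of 0.24 (SE 0.06, 95% interval 0.10 to 0.38, 1.18-fold, adjusted p = 0.137) and 0.25, 0.23 and 0.24 in the 3 pairs. CTK2 (YJL006C), the cyclin of CTDK-I, had 10.49, 10.71 and 10.57 against 10.81, 10.82 and 10.72, so that its groups all but touched (change 0.19, SE 0.08, adjusted p = 0.307). CTK1, the kinase itself, differed by 0.17 (SE 0.08, adjusted p = 0.365), with 0.18, 0.17 and 0.16 in the pairs. BUR2 differed by 0.10 (SE 0.11, adjusted p = 0.724).

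The changes of partners in one complex were compared within each array for 5 pairs of genes. These pairs come from TFIIE, TFIIF, the TFIIH kinase module, Spt4-Spt5 and FACT and need not be all of each complex. TAF14 of TFIIF and TFB3 of the TFIIH kinase module were not compared. In each pair the gene with the larger change is named first, so every difference is positive by construction. The change of CCL1 exceeded that of KIN28 by 0.41 (SE 0.08) and that of POB3 exceeded that of SPT16 by 0.19 (SE 0.09), both with no overlap between groups. The exact two-sided permutation p was 0.1 for each, the smallest that 3 arrays against 3 can give, and 0.25 adjusted over the 5 pairs, so neither could pass. For TFA1 over TFA2 the difference was 0.35 (SE 0.20), for SPT5 over SPT4 0.20 (SE 0.18) and for TFG1 over TFG2 0.05 (SE 0.04), with exact p of 0.2, 0.3 and 0.3.

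For some of these genes replicate 2 differed from the other replicates by more than the groups did. In both groups replicate 2 was the highest of the 3 arrays for 16 of the 34 genes (31.9% of all probe sets) and the lowest for 6 (32.4% of all). RPB9 and RPO26 lay 0.35 and 0.28 above the mean of the other replicates in GAL-YRA1, and 0.31 and 0.30 above it in GAL-YRA1Δi. SPT4 (0.21 and 0.28) and CTR9 (0.16 and 0.40) lay above it as well. TFA1 lay 0.29 and 0.15 below it, and CTK1 0.15 below it in both groups. CTK3 lay within 0.02 of it in both groups. Over the 34 genes these deviations had a Spearman correlation of 0.79 between the groups, against 0.74 over all 5449 genes, as a description across genes that share the same arrays. The correlation of the deviations with coding length was -0.03 in GAL-YRA1 and -0.16 in GAL-YRA1Δi over the 34 genes, and -0.11 and -0.15 over all genes. The change itself had a Spearman correlation with coding length of 0.34 over the 34 genes and 0.10 over all genes, again as a description across genes on shared arrays. With both replicate 2 arrays left out, 20 of 34 genes (58.8%) had groups that did not overlap, where 64.2% of all probe sets did so with 2 arrays against 2. In that setting 23 of 34 had a higher mean (53.0% of all probe sets).

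**Figure D3:**
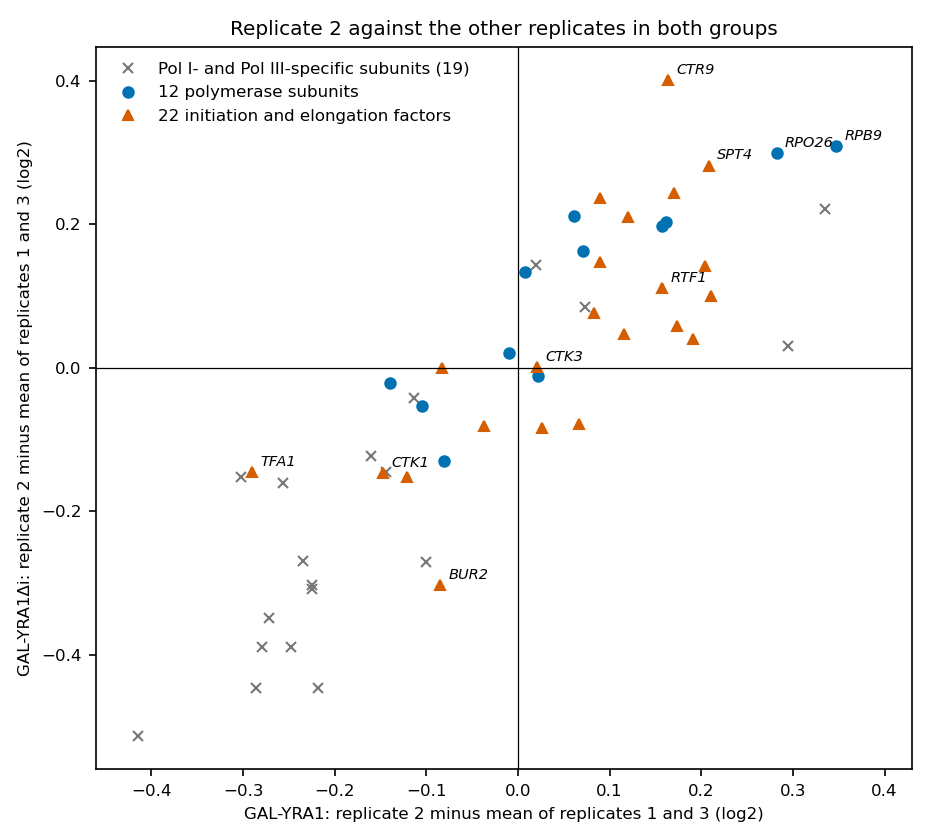
Replicate 2 minus the mean of replicates 1 and 3 (log2), in GAL-YRA1 on the x axis and in GAL-YRA1Δi on the y axis, for the 12 polymerase subunits, the 22 initiation and elongation factors and, for comparison, 19 subunits specific to Pol I or Pol III. RPB9 and RPO26 lie at the upper right and TFA1 at the lower left, and 15 of the 19 Pol I and Pol III subunits had their lowest array in replicate 2 of both groups.

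Other genes of the transcription machinery were taken from lists by role, 103 measured genes in all. At the looser threshold (0.05 and 1.5-fold), 1 of them was called (0.400% of all probe sets). This was SSL2 (YIL143C), the helicase subunit of TFIIH that opens the promoter, with a change of 0.69 (SE 0.08, limma adjusted p = 0.0345). Its adjusted p was 0.161 to 0.186 when any array other than a replicate 2 array was left out, which ended the call. The other TFIIH subunits ran down to -0.51 (TFB5, adjusted p = 0.270), with a median of 0.05 over the 8 genes. The median change was 0.07 over 17 genes of TFIIA, TBP and TFIID, 0.03 over 24 Mediator genes, 0.00 over 14 SAGA genes and -0.03 over 14 other elongation and CTD factors. None of those genes was called, and the lowest unadjusted p in each list belonged to TAF12 (change 0.23, adjusted p = 0.163), GAL11 (0.27, 0.220), UBP8 (0.22, 0.159) and SPN1 (0.15, 0.474). The median over all 103 genes was 0.04.

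**Figure D4:**
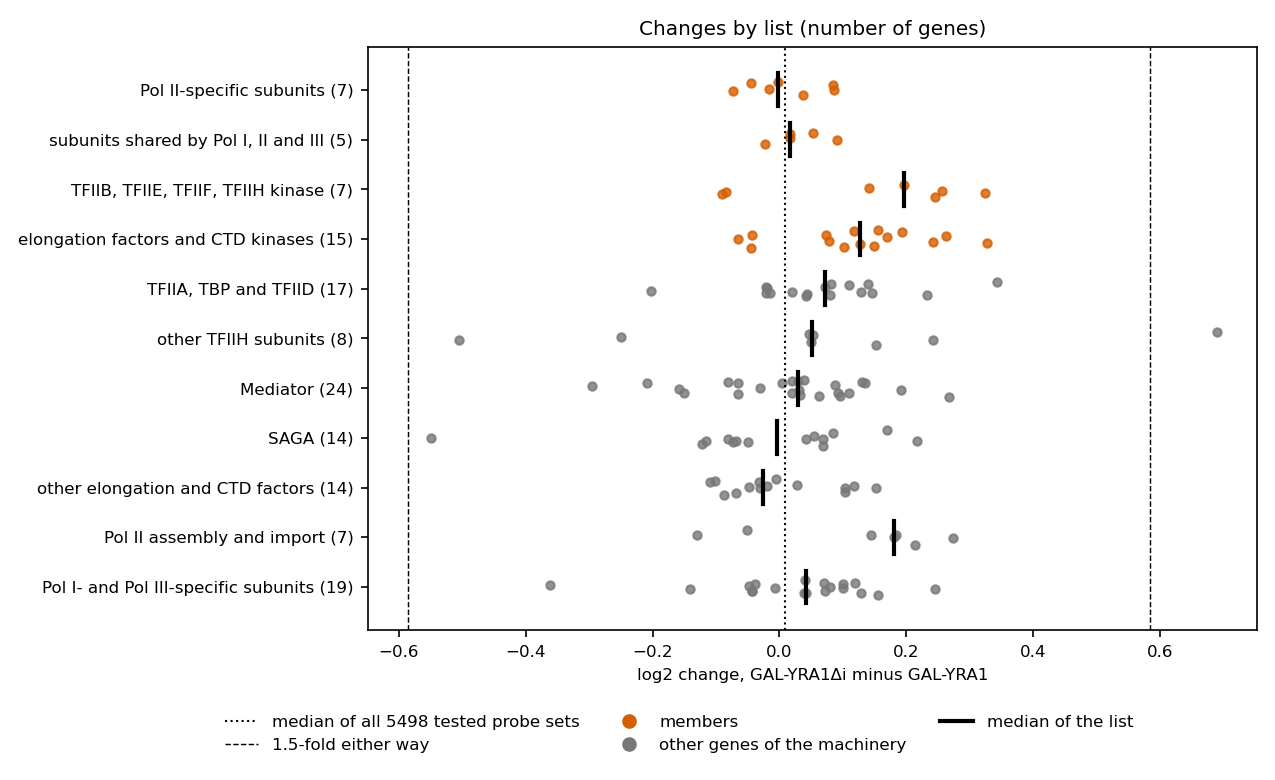
Log2 change of each gene (points) by list, members of the Pol II set in orange and other genes of the machinery in grey, with the median of each list (black bar) and of all 5498 tested probe sets (dotted line); dashed lines stand at 1.5-fold and points are spread vertically at random. The subunit lists lie close to the dotted line, the initiation and elongation lists have medians of 0.20 and 0.13, and SSL2 is the point beyond the right dashed line.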

How the data were processed

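Total RNA of each culture was measured on an Affymetrix Yeast Genome 2.0 array. The authors deposited log2 values made by RMA, which removes background, forces one distribution on all arrays and combines the probes of a set. A shift of most transcripts in one direction is therefore lost. No software version or genome build is given in the sources used here, and no coordinates are printed. Of 10928 probe sets, 5498 matched an S. cerevisiae gene through the platform annotation and a RefSeq table (R64, also the source of systematic names and coding lengths, which span introns) and were tested without a filter. Groups follow the labels. They were compared over all tested probe sets with limma 3.58.1 (lmFit, eBayes) in R 4.3.3, with Benjamini-Hochberg adjustment over all of them. As a check of the code only, the fit was also run on simulated arrays. Those had independent noise, without the replicate structure of these arrays, and larger changes than the 34 genes showed. Exact permutation tests used scipy 1.17.1. The stricter threshold is the one the methods state, and the looser one (0.05) was added. Members, lists and alternatives were chosen with earlier results of these data known. Every array was given for the genes with the lowest p in each role list (the lowest 2 in lists of 3 or more) and the 3 genes with the largest SD within a group, and in other lists the lowest p was named. SGV1, TFB5, TAF14 and TFB3 were described after their values were seen. Signals ran up to 15.12 (log2), and those of the 34 genes from 9.94 to 13.48, against 4.70 for the S. pombe percentile. The number of arrays limits the precision.

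Replicate numbers come from the labels, which call the arrays biological replicates and give no day or batch. After subtraction of the group mean, arrays with the same number were correlated over the tested probe sets. The correlations were 0.34, 0.69 and 0.30 for numbers 1, 2 and 3, so the numbers were used for the values by pair and for the replicate block. The main fit and the exact permutation tests treated the arrays as unpaired. Numbers 1 and 3 correlated more strongly crosswise (0.66 for GAL-YRA1 1 with GAL-YRA1Δi 3, 0.58 for 3 with 1), so values by pair rest on the labels' numbering.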

Additional observations from a re-analysis of the deposited data

How the results depend on the processing

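Across 14 alternatives (the replicate block, quantile normalization or equal medians of what was tested, dim probe sets removed, the whole table tested, eBayes with a trend or made robust, each array left out, and a setting added later that drops both replicate 2 arrays), 0 of the 34 genes passed either threshold. With replicate number as a block the counts stayed at 0 and 0, 12 genes had groups that did not overlap, 24 had a higher mean and the median change was 0.09. The block changed no call, and the lowest adjusted p was 0.0592 (RTF1). With 1 array left out, 12 to 20 genes had groups that did not overlap, and the median change ran from 0.05 to 0.10. The mean was higher for 21 to 28 of the 34, against 51.5% to 54.3% of all probe sets. Without GAL-YRA1 replicate 2 the count was 12 (35.3%), below the 37.7% of all probe sets. With any other single array left out, the share of the 34 genes was above that of all probe sets. It was 41.2% against 29.4% without GAL-YRA1 replicate 1, and 17 of the 34 against 29.3% without GAL-YRA1 replicate 3. Without GAL-YRA1Δi replicate 1 it was 38.2% against 26.0%, and without GAL-YRA1Δi replicate 3 it was 41.2% against 25.0%. The 20 (58.8%) came without GAL-YRA1Δi replicate 2, where 48.7% of all probe sets did not overlap, and 20 came again without both replicate 2 arrays, where 64.2% of all did not. Fewer arrays overlap less by construction.

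The sign turned for 11 of the 34 genes, all with a change of at most 0.13 in size, and held for 23. With 1 array left out the change ran from -0.067 to 0.045 for RPO21, -0.029 to 0.090 for RPB3, -0.11 to 0.0090 for RPB7, -0.13 to 0.10 for RPB9, -0.018 to 0.071 for RPB5, -0.12 to 0.071 for RPO26, -0.028 to 0.050 for RPB10, -0.14 to 0.040 for SPT4, -0.12 to 0.013 for SPT6, -0.0058 to 0.15 for SPT16 and -0.0073 to 0.20 for CTR9. Under quantile normalization RPO21 was at 0.033. Without both replicate 2 arrays RPO21 was at 0.015, RPB5 at -0.00029 and RPB10 at -0.026. The cause was not tested. Each member has 1 probe set, so the choice among probe sets of a gene could not be varied.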

Other observations

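The genes that assemble Pol II in the cytoplasm and bring it into the nucleus, such as the GTPases NPA3, GPN2 and GPN3, had a median change of 0.18 over 7 genes, beside 0.02 for the 12 subunits that they handle. RTP1 differed by 0.27 (SE 0.10, limma adjusted p = 0.262), BUD27 by 0.21 (adjusted p = 0.262), GPN2 by 0.18 and NPA3 by 0.14 (adjusted p = 0.348 and 0.355), with 3 of 7 (42.9%, against 22.2% of all probe sets) showing no overlap between groups and 0 called. IWR1, which takes part in the import of the enzyme, differed by -0.13. These genes other than RTP1 are named after their values were seen.

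The 19 subunits specific to Pol I or Pol III had a median change of 0.04, and 0 of them had groups that did not overlap, against 22.2% of all probe sets and 0 of the 12 Pol II subunits. The lowest unadjusted p belonged to RPC17 of Pol III, with a change of -0.36 (SE 0.17, limma adjusted p = 0.364). Replicate 2 was their lowest array in both groups for 15 of 19 and the highest for 1, against 2 and 5 of the 12 Pol II subunits. RPA135, a large Pol I subunit, lay 0.25 below the mean of the other replicates in GAL-YRA1 (-0.25) and further below in GAL-YRA1Δi (-0.39), and RPO31, the largest Pol III subunit, differed by -0.28 and -0.39 in the same way.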
